A study of Mus musculus with 6 samples.

Results

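Vascular nuclei of 2 lesion-bearing mouse brain samples are described here. They were selected on their RNA, by the counts of blood vessel genes: Flt1, Adgrl4, Mecom, Slco1a4, Cldn5, Pecam1 and Ptprb of endothelium, Pdgfrb and Rgs5 of pericytes, and Dcn of fibroblasts. A barcode was a member with at least 500 UMIs (unique molecular identifiers, each 1 captured RNA molecule), at most 5% mitochondrial UMIs, and at least 4 UMIs and 0.2% of its UMIs in these 10 genes. It also had at most 1 UMI of Hmga2, an oncofetal gene of the tumor nuclei, and under 0.2% of its UMIs in 5 immune genes (Dock2, Ptprc, Inpp5d, Apbb1ip and Csf1r). In all, 68 of 20475 barcodes were members.

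The lesions were made in C57BL/6J mice by in utero electroporation, in which a pulse of current drove plasmids into cells of the ganglionic eminences, in the ventral forebrain of mid-gestation embryos. Both genotypes carried Foxr2 overexpression from a piggyBac transposon with a CAG promoter, tagged with V5 and linked to GFP, together with an Akaluc and GFP reporter. Foxr2 p53LOF also received a CRISPR/Cas9 plasmid with a guide against p53, and Foxr2 alone did not receive that guide. The study also lists a Cas9 plasmid with a control guide, and does not state whether Foxr2 alone received it. RNA and open chromatin (ATAC-seq) were read from the same nuclei by 10x Multiome, with 1 library per genotype counted here (both are replicate 1), and counts of a second Foxr2 alone library were not analysed here. The age of the mice is not given in the labels. Electroporation reaches progenitors that line the ventricle, so vascular nuclei are taken as host cells that the plasmids were not aimed at, and each lesion reads the vessels of 1 piece of tissue.

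Brain capillaries are lined by endothelial cells that form the blood-brain barrier. These cells are joined by tight junctions, and they carry nutrients and hormones across with solute carriers while efflux pumps return drugs to the blood. Wnt and beta-catenin signals maintain this state, and ETS family factors such as Erg and Fli1 maintain endothelial identity. Pericytes and smooth muscle cells, together called mural cells, wrap the vessel in a shared basement membrane, and fibroblasts lie around larger vessels and in the meninges.

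Foxr2 p53LOF held 50 vascular nuclei among 10183 barcodes within the depth and mitochondrial limits, a share of 0.491% (95% exact binomial interval 0.365% to 0.647%). Foxr2 alone held 18 among 10063, a share of 0.179% (0.106% to 0.283%). All intervals here cover counting error only. With 1 library per genotype no test between genotypes was made, and a difference is a difference between these libraries. More vessels in the tissue and a piece of tissue or a nuclei preparation that held more of them cannot be told apart. Near the limits of the rule, 6 and 1 members had exactly 4 UMIs of the 10 genes, and 6 and 1 barcodes that met every other limit had 3. The lowest share of a member was 0.238% and 0.263%, and the highest share just outside was 0.198% and 0.186%. The Hmga2 limit removed 9 and 0 barcodes and the immune limit 4 and 1. The 2 libraries shared 140 cell barcodes, 2 members had a barcode that also occurred in the other library, and 0 barcodes were members in both.

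Members were split by the highest of 3 summed counts, each over 4 genes: Flt1, Adgrl4, Mecom and Ptprb for endothelial nuclei, Pdgfrb, Rgs5, Abcc9 and Notch3 for mural nuclei, and Dcn, Col1a2, Col3a1 and Bicc1 for fibroblast nuclei. Foxr2 p53LOF had 29 endothelial nuclei (58.0%, 43.2% to 71.8%), 8 mural nuclei (16.0%), 12 fibroblast nuclei (24%) and 1 nucleus with 0 UMIs of all 12 split genes. Foxr2 alone had 12 endothelial (66.7%, 41.0% to 86.7%) and 6 mural nuclei (33.3%). No fibroblast nucleus was found among the 18 of Foxr2 alone, which allows a share of up to 16.7% (3 counts). The unsplit nucleus held 6 UMIs of Pecam1 and 8 UMIs of choroid plexus and ependymal markers.

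Markers that the rule and the split had not used were highest in the class of their own name. The 18 endothelial markers (Cdh5, Emcn, Tek, Erg, Slc2a1 and others) made up 5328 CPM (UMIs of the list per 1000000 UMIs) in endothelial nuclei of Foxr2 p53LOF and 287 in the other barcodes of that library. In Foxr2 alone they made up 8482 CPM against 145. At least 3 such UMIs were present in 25 of 29 and in 11 of 12 nuclei. Mural nuclei also held them, at 2452 CPM in Foxr2 p53LOF (3 or more UMIs in 6 of 8) and 5116 CPM in Foxr2 alone (4 of 6). Of these UMIs, 38 of 42 and 38 of 69 were of Ebf1, which was also among the leading genes of mural nuclei in both libraries. With Ebf1 in it, this list separated the classes only in part. The 14 pericyte markers outside the split, among them Vtn and Atp13a5, made up 9048 CPM in mural nuclei of Foxr2 p53LOF against 70.9 in other barcodes, and 11122 against 122 in Foxr2 alone. Mural nuclei had more of these pericyte markers than of smooth muscle markers: the contractile genes Acta2, Tagln and Cnn1 had 0 UMIs in Foxr2 p53LOF and at most 1 each in Foxr2 alone, and Myh11 had 3 and 6. The 17 fibroblast markers made up 16815 CPM in the fibroblast nuclei and 763 in other barcodes.

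**Figure D1:**
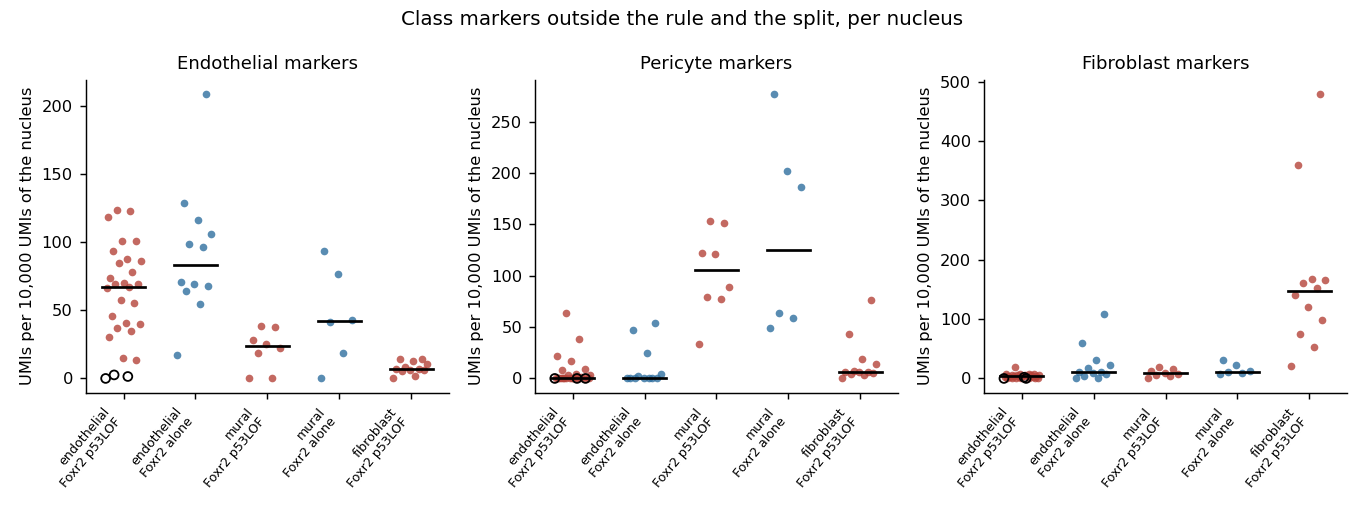
UMIs of endothelial, pericyte and fibroblast markers outside the rule and the split, per 10000 UMIs of each nucleus, by class and library. Each point is 1 nucleus, black lines are medians, and open circles are the 3 endothelial nuclei with neuron markers at 1% of UMIs or more, which lie at the bottom of the endothelial panel, while mural and fibroblast nuclei lead the panels of their own markers.

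In the plot of class markers by nucleus, 3 endothelial nuclei of Foxr2 p53LOF stood apart. Their 50, 22 and 12 UMIs of the rule genes were all Mecom, a transcription factor gene, and they held 2, 2 and 0 UMIs of the 18 endothelial markers. Neuron markers (Rbfox3, Syt1, Snap25, Celf4, Rbfox1 and Meg3) took 1.55% to 2.62% of their UMIs, and Gad2 of GABA neurons had 10, 12 and 1 UMIs. Their chromatin at neuron marker genes went the same way: peaks there took 1028 of 1000000 fragments (7 fragments), against 104 in the other 26 endothelial nuclei. Peaks at endothelial markers took 441 of 1000000 in the 3 nuclei (3 fragments, 90.8 to 1287). That is too few to set apart from the 459 of the 26 nuclei or the 231 of other barcodes. The RNA and the peaks at neuron markers go against the endothelial label for the 3 nuclei, and results below are also given without them. They held 26776 of the 138903 endothelial UMIs of that library.

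Other nuclei of both libraries also held RNA of other cells. In Foxr2 p53LOF, 1 endothelial nucleus held 41 UMIs of astrocyte markers and another held 32 of oligodendrocyte markers. Among its fibroblast nuclei, 1 held 73 UMIs of oligodendrocyte markers and another held 35 of astrocyte markers. A single endothelial nucleus of Foxr2 alone held 359 of the 360 hemoglobin UMIs, and 41 UMIs of oligodendrocyte markers. Among mural nuclei of Foxr2 alone, 1 held 24 UMIs of GFP, 1 of Foxr2 and 19 of oligodendrocyte precursor markers. A pair of others held 28 and 24 UMIs of the endothelial markers. That list includes Ebf1, which had 23 UMIs in 1 mural nucleus of this library. The nucleus with 28 also held 68 UMIs of Ctla2a and 8 of Cldn5. The nucleus with 24 held 0 of Ctla2a, Cldn5, Pecam1 and Cdh5, and 52 of pericyte markers, so it was not shown to be mixed. GFP in vascular nuclei of Foxr2 p53LOF was spread thinly, at 31 UMIs in 17 of 29 endothelial nuclei with at most 4 in any nucleus, where 60.6% of other barcodes held GFP, and Foxr2 itself had 8 UMIs in 6 of the 29. In Foxr2 alone 0 of 12 endothelial nuclei and 7.49% of other barcodes held GFP.

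Chromatin counts of the same nuclei were not used by the rule, which read RNA only. Peaks were the intervals of open chromatin that the authors called in each library on its own. Endothelial nuclei had 102736 fragments in peaks in Foxr2 p53LOF (95926 without the 3 nuclei) and 58148 in Foxr2 alone. Of peaks with at least 20 endothelial fragments, 21 of 42 (50%) in Foxr2 p53LOF and 2 of 10 (20%) in Foxr2 alone were at least 2-fold above the other barcodes with an interval of the ratio off 1. At this minimum few peaks could be read. A minimum of 8 fragments, chosen after the data were seen and used without the 3 nuclei, gave 870 of 2515 peaks (34.6%) and 674 of 955 (70.6%).

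Among these, peaks at known endothelial genes stood far above the rest of the library. The central 200 bases of 5 of them are shown, on the plus strand of mm10, because they lie near or in genes of the barrier, of VEGF signalling and of endothelial transcription and were far above other barcodes. Capitals mark the letters CNGGAAG, the core that ETS factors bind, on either strand. They were picked after their values were seen.
Slc2a1, chr4:119044250-119044449: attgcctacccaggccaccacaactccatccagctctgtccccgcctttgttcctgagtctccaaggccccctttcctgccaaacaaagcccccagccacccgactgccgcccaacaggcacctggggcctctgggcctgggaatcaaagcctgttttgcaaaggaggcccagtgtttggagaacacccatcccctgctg
Kdr, chr5:76013987-76014186: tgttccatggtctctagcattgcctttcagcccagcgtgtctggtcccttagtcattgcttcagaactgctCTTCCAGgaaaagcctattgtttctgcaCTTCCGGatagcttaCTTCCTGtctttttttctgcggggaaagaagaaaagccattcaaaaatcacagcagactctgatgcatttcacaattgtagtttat
Gata2, chr6:88203467-88203666: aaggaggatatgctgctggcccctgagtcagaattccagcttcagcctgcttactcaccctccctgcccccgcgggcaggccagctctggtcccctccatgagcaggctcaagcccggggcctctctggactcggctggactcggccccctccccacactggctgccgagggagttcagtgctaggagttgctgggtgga
Epas1, chr17:86769877-86770076: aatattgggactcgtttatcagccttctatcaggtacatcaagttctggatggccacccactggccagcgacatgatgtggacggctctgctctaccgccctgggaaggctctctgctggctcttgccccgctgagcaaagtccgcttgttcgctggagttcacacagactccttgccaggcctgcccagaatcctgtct
Tjp1, chr7:65516737-65516936: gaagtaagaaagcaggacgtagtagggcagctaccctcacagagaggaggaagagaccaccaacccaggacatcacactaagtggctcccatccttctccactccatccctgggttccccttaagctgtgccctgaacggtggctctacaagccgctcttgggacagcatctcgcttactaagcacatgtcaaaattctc

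The peak nearest Slc2a1, the glucose transporter of the barrier, was intergenic and lay 64362 bases from its start. It had 13 fragments in 6 endothelial nuclei of Foxr2 p53LOF, 80.9-fold above other barcodes per fragment (41.5 to 145). The peak nearest Kdr, the main receptor for VEGF, was intergenic at 35628 bases and had 9 fragments in 7 nuclei, 24.5-fold above (11.1 to 47.5). It held 3 matches of the ETS letters, the only matches in the 5 sequences. The peak in an intron of Gata2, a factor of endothelial and blood lineages, had 16 fragments in 11 nuclei and was 27.9-fold above (15.8 to 46.1).

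A pair of peaks was open in endothelial nuclei of both libraries. The peak in an intron of Epas1, which encodes a hypoxia-inducible factor, was 21.9-fold above other barcodes in Foxr2 p53LOF (8 fragments in 6 nuclei) and 33.2-fold above in Foxr2 alone (6 fragments, 12.03 to 73.5). The peak in an intron of Tjp1, which encodes the junction scaffold ZO-1, was 33.8-fold above in Foxr2 alone (10 fragments in 6 nuclei) and 11.7-fold above in Foxr2 p53LOF (6 fragments, 4.26 to 25.8). The other 3 lay at no peak called in Foxr2 alone, so they could not be read there.

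Peaks called in 1 library were then read in endothelial nuclei of the other. In Foxr2 alone, the 824 peaks that overlapped a called peak of Foxr2 p53LOF took 6.36% of the peak fragments of endothelial nuclei and 2.95% of those of other barcodes, a 2.15-fold difference. Over the 12 nuclei this share ran from 4.87% to 7.93% with a median of 6.83%, and the median of other barcodes was 3.06%. In the reverse direction, 671 such peaks took 6.11% of endothelial fragments and 4.02% of other fragments in Foxr2 p53LOF, a 1.52-fold difference, and 26 nuclei ran from 4.62% to 8.34%. The 3 nuclei with neuron markers had 2.97%, 3.37% and 4.22%, and the median of other barcodes was 4.18%. Mural nuclei held nearly as much as endothelial nuclei, from 5.08% to 6.56% and from 4.47% to 7.39%. Fibroblast nuclei ran from 4.16% to 6.93%. In Foxr2 p53LOF the 26 endothelial and the 8 mural nuclei lay above the median of other barcodes, while 1 of the 12 fibroblast nuclei and 2 of the 3 nuclei with neuron markers lay below it. The ranges of endothelial and mural nuclei overlapped. Directly, 101 peaks were called in both libraries, 11.6% of the 870 and 14.99% of the 674.

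**Figure D2:**
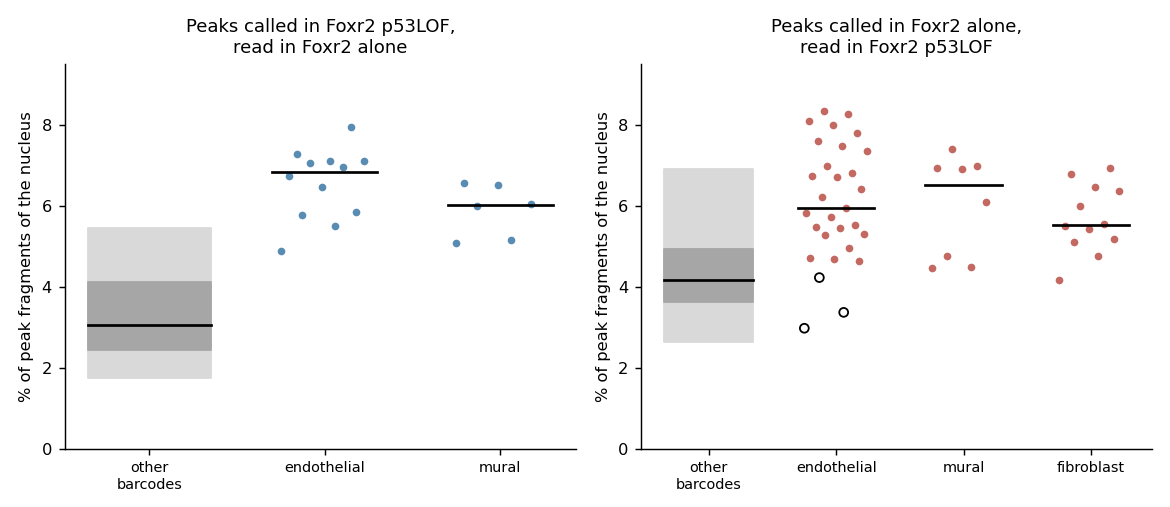
Percent of the peak fragments of each nucleus that fell in peaks called in endothelial nuclei of the other library. Points are nuclei, black lines are medians, open circles are the 3 nuclei with neuron markers, and grey bands span the 25th to 75th and the 1st to 99th percentile of other barcodes with at least 500 fragments (up to 5.45% and 6.91%). In Foxr2 alone 11 of 12 endothelial and 4 of 6 mural nuclei lie above the outer band, and in Foxr2 p53LOF 9 of 26 endothelial and 3 of 8 mural nuclei do.

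Of the called peaks, 284 (32.6%) and 147 (21.8%) lay more than 1 kb from a protein-coding gene start, against 86.8% and 89.3% of all peaks, and against 13.1% and 12.6% of the peaks with 8 fragments that were not called. Most called peaks thus lay within 1 kb of a start, but the called share of distal peaks was above that of uncalled peaks with as many fragments. In the central 300 bases of these distal peaks, CNGGAAG on either strand occurred in 44.0% of those of Foxr2 p53LOF (38.2% to 50%), in 33.0% of distal peaks with 8 fragments that were not called, and in 27.9% of all distal peaks. In Foxr2 alone the shares were 38.8% (30.9% to 47.2%), 37.1% and 24.8%. Called peaks were richer in G and C than all distal peaks, at 59.5% against 49.7% in Foxr2 p53LOF and 64.5% against 47.8% in Foxr2 alone. Uncalled distal peaks with 8 fragments were richer still, at 67.2% and 66.6%. The part of G and C content in the motif shares, here and for AP-1 below, was not tested. The letters of AP-1, TGANTCA, were in 19.7% of the called distal peaks of Foxr2 p53LOF (15.3% to 24.8%), in 5.12% of its uncalled distal peaks with 8 fragments (2.58% to 8.97%) and in 23.3% of all its distal peaks. In Foxr2 alone these shares were 13.6%, 0 of 35 and 18.4%. The AP-1 share of called peaks was thus above that of uncalled peaks but not above that of all distal peaks.

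At promoters (peaks within 2000 bases of the interval that the deposited feature list gives for the starts of a gene), endothelial transcription factors led the lists. Of their members with 8 fragments, 8 of 10 in Foxr2 p53LOF and 7 of 7 in Foxr2 alone were past 2-fold, where 23.6% and 58.2% of all promoter windows were. Summed over the list, the ratio to other barcodes was 2.69-fold and 6.04-fold. Tight and adherens junction genes followed at 2.68-fold and 5.25-fold, with 3 of 3 and 2 of 2 members called. Basement membrane genes were at 2.20-fold and 3.49-fold, with 3 of 3 and 1 of 1 called. Barrier transporters were at 1.57-fold and 2.27-fold, with 0 of 2 and 5 of 5 called. These lists kept the rule genes Mecom (transcription factors), Cldn5 (junctions) and Slco1a4 (transporters). Promoters of the rule genes, 6 of 10 with a peak in each library, were at 3.59-fold and 9.89-fold. Their part in the order of the lists was not tested. Some lists not chosen for endothelium were also above other barcodes. Immediate early and heat shock genes were at 1.66-fold and 2.10-fold, and MHC class I genes at 1.37-fold and 3.05-fold. Proliferation genes were at 1.39-fold and 1.44-fold. Barrier transporters lay within the range of these lists. Arterial genes stood near the level of other barcodes, at 0.958-fold and 1.10-fold. Promoters of neuron markers were at 0.488-fold and 0.298-fold and those of oligodendrocyte markers at 0.0730-fold and 0.150-fold, in both libraries below other barcodes.

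Mural and fibroblast nuclei had open chromatin at their own markers. Peaks at pericyte markers took 749.8 of 1000000 fragments in mural nuclei and 250.2 in other barcodes in Foxr2 p53LOF, and 466 against 132 in Foxr2 alone. Peaks at fibroblast markers took 643 of 1000000 fragments in the fibroblast nuclei of Foxr2 p53LOF and 295 in other barcodes. These rest on 18, 13 and 23 fragments. Mural nuclei of Foxr2 alone also had 502 of 1000000 fragments at fibroblast markers (14 fragments), against 261 in other barcodes. In that library their chromatin was thus not particular to pericyte markers. Mural nuclei of Foxr2 p53LOF had 167 at fibroblast markers, against 295 in other barcodes.

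RNA of endothelial nuclei was compared between the libraries on 138903 UMIs in Foxr2 p53LOF and 41384 in Foxr2 alone, with a median of 4019 and 2088.5 UMIs per nucleus. A gene was called when the higher library had at least 20 UMIs, the CPM ratio was at least 2-fold and its exact interval lay off 1. Of 1736 genes with 20 UMIs, 427 (24.6%) were higher and 187 (10.8%) lower in Foxr2 p53LOF. Without the 3 nuclei with neuron markers, 1329 genes were compared, 333 (25.1%) were higher and 167 (12.6%) lower, and 276 and 165 of the genes were called in both. Because the minimum was met more easily in the larger library, a lower gene was harder to call. A gene that met the minimum in only 1 library could be called only as higher in that library.

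Markers of other cells were present in the summed RNA: neuron markers had 651 and 69 UMIs, oligodendrocyte markers 96 and 95, astrocyte markers 86 and 37 and immune markers 30 and 1. Per 1000000 UMIs, neuron markers were at 4687 and 1667 CPM (1614 in Foxr2 p53LOF without the 3 nuclei, where 1 nucleus just under 1%, at 0.897%, held 152 of the 181 UMIs left, and 305 without that nucleus too, while Foxr2 alone had 1019 without its highest nucleus), oligodendrocyte markers at 691 and 2296, astrocyte markers at 619 and 894 and immune markers at 216 and 24.2. The 14 pericyte markers outside the rule and the split were at 641 and 1837 CPM, against 70.9 and 122 in other barcodes. The 17 fibroblast markers outside them were at 353 and 1885 CPM, below the 763 and 4988 of other barcodes. Of the immune UMIs, 28 and 1 were of the 5 genes that the rule capped. The other 3 immune genes had 2 and 0 UMIs, so the immune level is not independent of the rule. The part of these other cells in the differences was not tested.

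The split of higher and lower calls depended on gene length and on scaling. Without the 3 nuclei, among genes under 10 kb, 8 were higher and 119 lower of 177, with a median log2 ratio of -1.50. Among genes of 100 to 300 kb, 128 were higher and 9 lower of 410, with a median of 0.91. In other barcodes the medians of these genes were -0.12 and 0.58. Endothelial nuclei of Foxr2 alone also held more ribosomal protein RNA, 7.74% against 2.39% of UMIs, and more mitochondrial RNA, a median of 0.616% against 0.265%, while other barcodes held 1.55% and 1.51% ribosomal protein RNA. The part of RNA quality or of cytoplasmic RNA in these differences was not tested. The median log2 ratio of the 228 genes with 20 UMIs in both libraries was -1.24, and scaling to that median moved every log2 ratio up by 1.24 and turned the split to 1256 higher and 70 lower (94.7% and 5.28% of calls, against 69.5% and 30.5%). Taken relative to the median of its length bin, without the 3 nuclei, the split was 135 higher and 116 lower. Genes below are said to hold when they were called under each of these settings. Since median scaling moved every ratio up, no higher call could be lost under it. For higher genes only the other settings bear on this. The 20 UMIs needed in both libraries are a higher CPM in Foxr2 alone, which held fewer UMIs. The genes that set the median were therefore picked toward those high in Foxr2 alone, which lowers it by an amount not tested. Calls gained or lost only under median scaling rest on this shift.

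**Figure D3:**
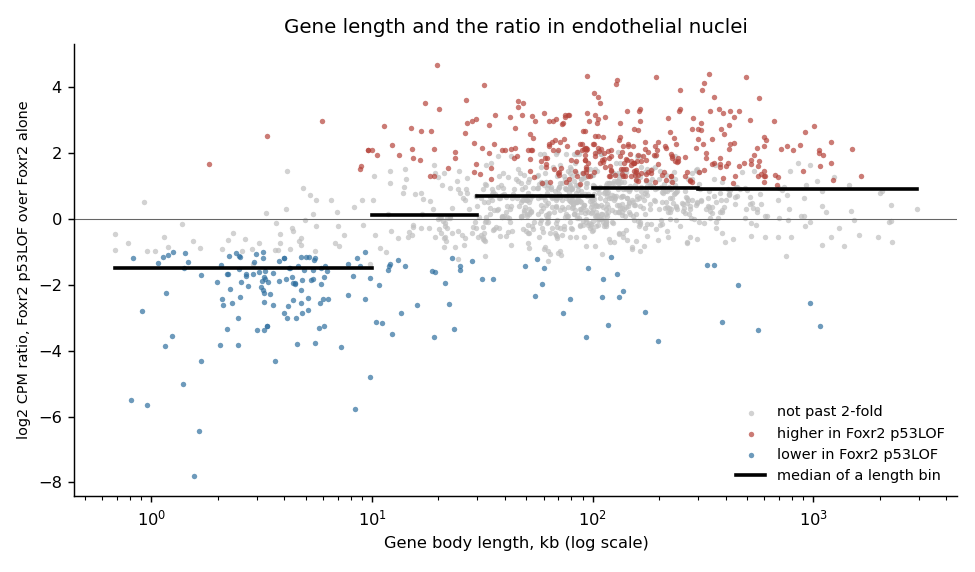
Log2 ratio of CPM, Foxr2 p53LOF over Foxr2 alone, in endothelial nuclei without the 3 with neuron markers, against gene body length in kb on a log axis. Each point is a gene with at least 20 UMIs in the higher library, a library at 0 UMIs was set to 3, red and blue mark genes past 2-fold, and black lines are medians of length bins, which run from -1.50 under 10 kb to about 0.91 above 100 kb.

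Barrier transporters were higher in Foxr2 p53LOF. Of 20 genes, 14 had 20 UMIs, 9 were higher and 0 lower, against 24.6% and 10.8% of all genes. All 9 reached the minimum only in Foxr2 p53LOF, which favours higher calls. The same 9 held without the 3 nuclei, there also relative to the length bin. With all 29 nuclei, Abcc4 and Slc39a10 lost the call relative to the length bin. Slco1a4, which the rule used, was left out of the levels of the list. Over the other 19 genes, the 26 endothelial nuclei of Foxr2 p53LOF without neuron markers held 23.9 to 243 UMIs per 10000 with a median of 82.7, and the 12 of Foxr2 alone held 16.1 to 53.5 with a median of 32.6. The ranges overlapped, and summed levels were 8267 and 2972 CPM.

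Slco1c1, which carries thyroid hormone, had 226 UMIs in 23 of 29 nuclei of Foxr2 p53LOF and 7 UMIs in 2 of 12 nuclei of Foxr2 alone, 9.62-fold higher in CPM. Per nucleus it ran from 0 to 31 UMIs with a median of 5 in Foxr2 p53LOF, and from 0 to 6 with a median of 0 in Foxr2 alone. Slc16a1, a lactate and ketone carrier, had 70 UMIs in 19 nuclei against 1 UMI, a log2 ratio of 4.38 (1.86 to 9.71). Slco2b1, an organic anion carrier, had 44 UMIs in 22 nuclei against 0 in 12, at least 4.37-fold higher. These 3 genes were present in most nuclei of Foxr2 p53LOF and in few or no nuclei of Foxr2 alone. The amino acid carriers Slc7a5 (34 against 1 UMIs) and Slc7a1 (59 against 3, 5.86-fold), the iron exporter Slc40a1 (34 against 2), the zinc carrier Slc39a10 (56 against 5, 3.34-fold), the efflux pump Abcc4 (50 against 3) and the transferrin receptor Tfrc (41 against 4, 3.05-fold) made up the 9.

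Other main genes of the barrier were not past 2-fold. Slc2a1 had 113 and 45 UMIs, a log2 ratio of -0.42 (-0.93 to 0.11). Slco1a4, a rule gene, had 371 and 80 UMIs, and the efflux pumps Abcb1a (85 and 22) and Abcg2 (48 and 17) had log2 ratios of 0.20 (-0.49 to 0.95) and -0.25 (-1.07 to 0.64). Of these 4, Slco1a4 and Abcb1a were past 2-fold under median scaling, and Abcg2 also was without the 3 nuclei. The higher transporters were thus part of the list and did not include the glucose carrier.

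Of 7 tight and adherens junction genes with 20 UMIs, 0 were higher and 1 lower, against 24.6% and 10.8% of all genes. Without the lower gene, which the rule used, the list had per-nucleus medians of 38.2 and 31.6 UMIs per 10000 without the 3 nuclei. Tjp1 had 175 and 44 UMIs, a log2 ratio of 0.24 (-0.24 to 0.76), and Cgnl1, which encodes paracingulin, had 63 and 18. The lower gene was Cldn5, the main claudin of the barrier and a rule gene, at 105 and 80 UMIs, and it was called neither under median scaling nor relative to its length bin. Under median scaling 5 of the 7 were higher.

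Of the Wnt and beta-catenin list, 2 of 5 were higher, against 24.6% of all genes, and held throughout, among them the receptor Fzd6, with 45 UMIs in 21 nuclei against 1. The effector Lef1 (62 and 13 UMIs) and the target Apcdd1 (58 and 13) had log2 ratios of 0.51 and 0.41 and were past 2-fold only under median scaling. Axin2, the usual feedback target, had 11 and 3 UMIs, too few to be called.

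Among VEGF receptors, Kdr was higher, at 61 UMIs in 19 nuclei against 6 in 4, 3.03-fold (log2 interval 0.39 to 3.10). Its call was lost relative to the length bin with all 29 nuclei, and stood without the 3. The co-receptor Nrp1 (27 against 1) lost its call without the 3 nuclei, where 14 UMIs were left. The decoy receptor Flt1, a rule gene, had 317 and 132 UMIs, a log2 ratio of -0.48, and was lower relative to its length bin. Tip cell genes gave no further call: Angpt2, a destabilising ligand, had 27 and 9 UMIs, Pdgfb 19 and 2, and Aplnr, Esm1 and Plvap were not among the genes with 20 UMIs.

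By vessel segment, 5 of 10 capillary genes had 20 UMIs, and all 5 were higher, against 24.6% of all genes. Without the 3 nuclei all 5 were higher relative to the length bin. They were Slc16a1, Slc7a5, Kdr and Tfrc, named above, and Spock2, a matrix proteoglycan gene (47 against 3 UMIs, 4.67-fold). Of these, 3 are also in the transporter list. All 5 reached the minimum only in Foxr2 p53LOF, which favours higher calls. The 10 genes summed to 285 and 35 UMIs, 2052 against 846 CPM, a log2 ratio of 1.28 (0.77 to 1.83). Ranges per nucleus overlapped. The 5 genes below the minimum held most of the UMIs of Foxr2 alone but few of Foxr2 p53LOF. Summed, they were lower in CPM in Foxr2 p53LOF, so the higher sum rests on the 5 called genes. Of venous genes, Il1r1, the receptor of interleukin-1, was higher at 51 UMIs in 11 nuclei against 3, with 18 UMIs in 1 nucleus. Lcn2, which encodes an acute-phase lipocalin, was lower, with 0 UMIs against 22 in 6 nuclei, and Tmem252 (18 against 22) was lower only without scaling or length correction. Vwf, the von Willebrand factor, had 107 and 16 UMIs, a log2 ratio of 0.99 (0.23 to 1.85), and was called without the 3 nuclei or under median scaling. In the arterial list only Edn1, endothelin, had 20 UMIs (24 and 6). It was called higher under median scaling and relative to the length bin, but not otherwise. The 15 arterial genes summed to 55 and 38 UMIs, 396 against 918 CPM, a log2 ratio of -1.21 (-1.84 to -0.58).

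Basement membrane genes gave 1 higher of 7, no more than the 24.6% of all genes: Fn1, fibronectin, with 141 UMIs in 20 nuclei against 10 in 6, a log2 ratio of 2.07 (1.15 to 3.16), with at most 18 in a nucleus. Col4a1 (70 and 27 UMIs), Col4a2 (77 and 22) and Sparc (127 and 56) were not called. Under median scaling 5 of the 7 were higher, Col4a2, Lama4, Lamc1, Nid1 and Fn1. Lama4 (25 and 2 UMIs) was also called without the 3 nuclei, and Col4a1 was lower relative to the length bin with all 29 nuclei. Of the endothelial transcription factors other than Mecom, which the rule and the split used, 4 of 7 were higher, against 24.6% of all genes, and Epas1 (73 and 33 UMIs) was lower relative to the length bin with all 29 nuclei. Zfp366 (42 against 2 UMIs) held relative to the length bin, and the ETS genes Fli1 (128 and 17, 2.24-fold), Ets1 (73 and 10, 2.17-fold) and Elk3 (39 and 3) did not. Erg had 36 and 6 UMIs and was called only under median scaling, and Ebf1 (95 and 15) there or without the 3 nuclei.

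Interferon response genes were higher in endothelial nuclei of Foxr2 p53LOF. Of 20 genes, 7 had 20 UMIs and 6 were higher, against 24.6% of all genes, among them Gbp2, Gbp4, Iigp1, Rnf213 and Oasl2. These 6 held under each setting, and without the 3 nuclei Parp14 was called too. In all, 418 UMIs stood against 9, that is 3009 against 217 CPM, and 14 of the 20 genes had 0 UMIs in Foxr2 alone. With 9 UMIs over the list there, all 7 genes reached the minimum only in Foxr2 p53LOF, so no lower call was possible. Per nucleus, the 26 endothelial nuclei held 9.19 to 83.3 UMIs per 10000 with a median of 29.8, and the 12 of Foxr2 alone 0 to 10.7 with a median of 1.24. Only the lowest nucleus of Foxr2 p53LOF lay within the range of Foxr2 alone.

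Gbp2, a guanylate-binding GTPase, had 62 UMIs in 20 nuclei against 2, 9.24-fold higher, and Rnf213, a large ubiquitin ligase, had 54 UMIs in 18 nuclei against 1. Iigp1, an immunity-related GTPase, had 52 UMIs in 15 nuclei against 0, at least 5.16-fold higher, with 17 UMIs in 1 nucleus. Gbp4, of the same family as Gbp2, had 33 UMIs in 11 nuclei against 0, at least 3.28-fold higher. The list was not particular to vessels: other barcodes were at 3935 and 73.2 CPM, immune barcodes at 4157 and 440, and barcodes with more than 1 Hmga2 UMI at 6424 CPM in Foxr2 p53LOF. The 3 nuclei with neuron markers had 149 CPM of this list, and other barcodes with neuron markers at 1% had 695. Whether RNA released by other cells added to the level in endothelial nuclei was not tested.

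MHC class I genes, which present peptides to T cells, did not follow. None of the 3 with 20 UMIs was called: B2m had 90 and 30 UMIs, H2-K1 60 and 27, and H2-D1 39 and 21. Summed levels were 1857 and 2199 CPM, and per-nucleus medians 20.8 and 18.2 UMIs per 10000. In other barcodes the list was at 1828 and 123 CPM, so endothelial nuclei of Foxr2 alone stood well above the rest of their library while those of Foxr2 p53LOF did not. B2m was past 2-fold under median scaling, and B2m and H2-K1 were relative to the length bin.

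Glucocorticoid response genes, which steroid hormones and stress induce, were lower in Foxr2 p53LOF. All 3 with 20 UMIs were lower, against 10.8% of all genes, and all 3 genes held under each setting. Nfkbia and Cdkn1a are shorter than 10 kb, where 119 of the 177 genes were lower without the 3 nuclei. Sgk1 is among the genes of 100 to 300 kb, where 9 of 410 were lower. Cdkn1a and Sgk1 reached the minimum only in Foxr2 alone, so no higher call was possible for them. Nfkbia, an inhibitor of NF-kappa-B, had 24 UMIs in 13 of 29 nuclei against 92 in 10 of 12, 12.9-fold lower, with 0 to 3 UMIs per nucleus against 0 to 34. Cdkn1a, which encodes the cell cycle inhibitor p21 and is also a p53 target, had 5 UMIs in 5 nuclei against 51 in 9 nuclei, 34.2-fold lower. Sgk1, a kinase, had 14 against 31 UMIs, a log2 ratio of -2.89 (-3.92 to -1.94).

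Over the whole list, the 29 nuclei of Foxr2 p53LOF held 0 to 31.9 UMIs per 10000 with a median of 5.32, and the 12 of Foxr2 alone 30.9 to 82.1 with a median of 43.2. A single nucleus of Foxr2 p53LOF reached the range of Foxr2 alone. The best known steroid targets Fkbp5 (5 and 8 UMIs), Tsc22d3 (10 and 14) and Per1 were below 20 UMIs. Other barcodes were lower too, at 445 against 1089 CPM, and immune barcodes at 559 against 3194. Endothelial nuclei stood at 684 against 5292 CPM.

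**Figure D4:**
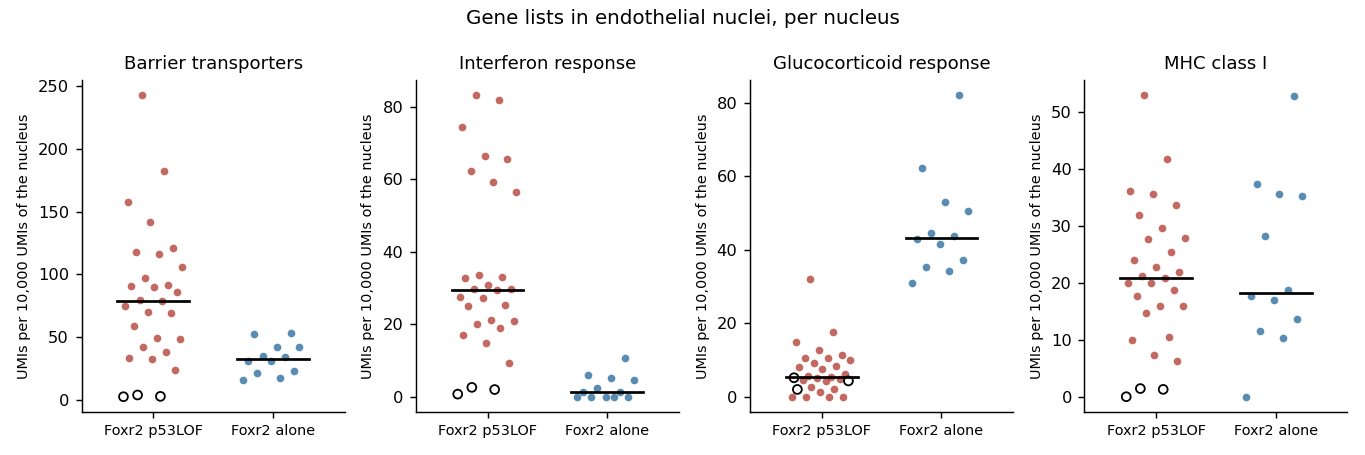
UMIs of 4 gene lists per 10000 UMIs of each endothelial nucleus in Foxr2 p53LOF (29) and Foxr2 alone (12). Points are nuclei, black lines are medians (79.2 and 32.6 for barrier transporters without the rule gene, 29.5 and 1.24 for the interferon response, 5.32 and 43.2 for the glucocorticoid response, 20.8 and 18.2 for MHC class I), and open circles are the 3 nuclei with neuron markers.

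The plot of gene lists by nucleus shows the 3 kinds of pattern side by side: an overlap with a shift for transporters, near separation for the interferon and glucocorticoid lists in opposite directions, and full overlap for MHC class I.

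By the rule for named genes, Gm5127 led the higher genes, with 136 UMIs in 10 nuclei against 0, at least 13.5-fold higher, and it was at 979 CPM against 1.498 and 0.151 CPM in other barcodes. Hs6st3 (96 UMIs) and Il1rapl2 (64) came next, and both were found only in the 3 nuclei with neuron markers. Present in more nuclei were Prex2, a Rac exchange factor gene (141 UMIs in 24 nuclei against 8, 5.25-fold), Limch1 (109 in 23 against 5, 6.50-fold), Dach1, a transcription factor gene (130 in 22 against 7, 5.53-fold), Csgalnact1 (35 in 19 against 0), Nhsl1 (37 in 16 against 0) and St6gal1 (34 in 15 against 0), the last a sialyltransferase gene. Fbxl7 had 69 UMIs against 2, with 25 in 1 nucleus, and Cacna1e, a calcium channel gene, 64 against 1. Esrrg, a nuclear receptor gene, had 37 UMIs in 8 nuclei against 0.

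The lower genes included several that single nuclei carried. Hbb-bs (245 UMIs), Hba-a1 (56) and Hba-a2 (50) of hemoglobin came from the nucleus named above, with 1 further Hba-a1 UMI. Sst, the neuropeptide somatostatin, had 36 UMIs, 34 of them in 1 nucleus. Others were broad. Ctla2a, a cysteine protease inhibitor gene of endothelium, had 106 UMIs in 19 of 29 nuclei against 556 in 11 of 12, 17.6-fold lower, with a median of 2 against 17.5 UMIs per nucleus. Hspb1, a small heat shock protein gene, had 2 UMIs against 64 in 9 nuclei, and Mt1, a metallothionein gene, had 26 against 105 in 11 nuclei, 13.6-fold lower. Bex2 had 1 against 22 in 6 nuclei. Pglyrp1 (12 against 53), Akap12 (11 against 49), Ndufa4 (6 against 33) and Ifitm2 (6 against 32) were each in 7 or 8 nuclei of Foxr2 alone.

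Of 14 endothelial markers with 20 UMIs, 3 were lower and 0 higher, against 10.8% and 24.6% of all genes. Without the 3 nuclei Sema3c and Ebf1 were higher, and under median scaling 8 were higher and only Ly6c1 was lower. Ly6c1 had 35 UMIs in 9 nuclei against 93 in 11, 8.92-fold lower, and held under each setting. Egfl7 (35 and 31) was lower except under median scaling, and Ly6a (43 and 57) except there and relative to the length bin. Among stress genes the chaperone gene Hsp90aa1 was lower (31 and 29 UMIs), except under median scaling. Of the BMP list, Id1, a direct target, had 12 against 21 UMIs, 5.87-fold lower, but was not called relative to its length bin, and Smad1 (40 and 25) was lower with all 29 nuclei and relative to its length bin with or without the 3 nuclei, but not otherwise. Of Notch genes only Notch1 had 20 UMIs (23 and 4), and it was higher only under median scaling. Picalm, a clathrin adaptor gene, was the 1 higher of 3 endocytosis genes (65 and 8), and its call was lost relative to the length bin.

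**Figure D5:**
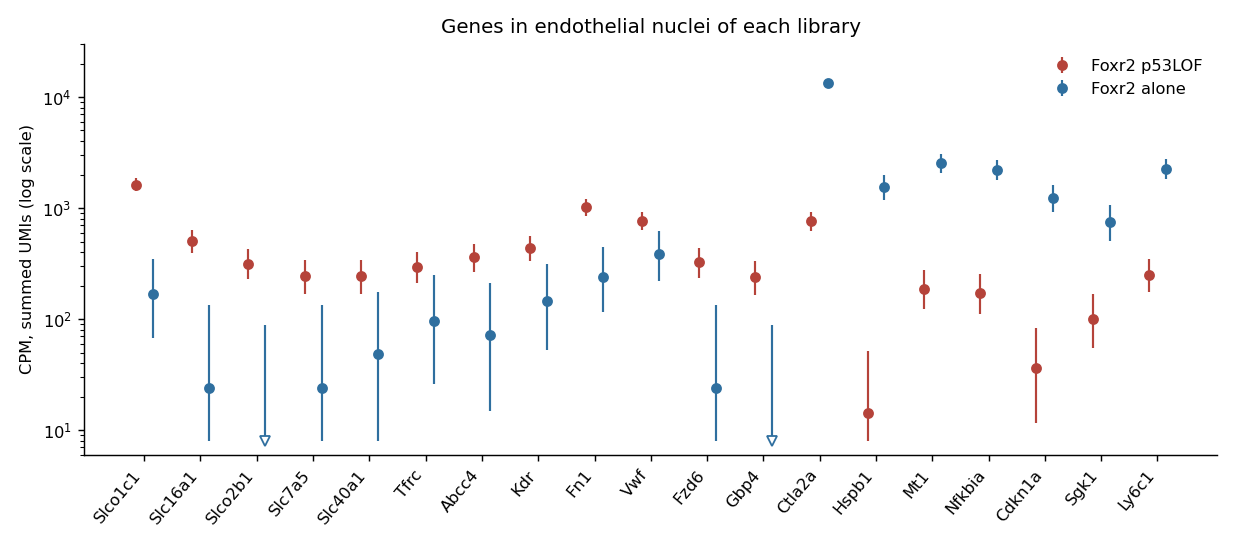
CPM of 19 genes in endothelial nuclei of both libraries (UMIs summed over 29 and 12 nuclei), on a log axis with exact Poisson 95% intervals. Open triangles mark 0 UMIs, with the line reaching up to the limit that 0 counts allow. Transporters, Kdr, Fn1, Fzd6 and Gbp4 lie higher in Foxr2 p53LOF, and Ctla2a, Hspb1, Mt1, Nfkbia, Cdkn1a, Sgk1 and Ly6c1 in Foxr2 alone.

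In the plot of gene levels, the intervals of Ctla2a (763 and 13435 CPM), Hspb1 (14.4 and 1547 CPM) and Slco1c1 (1627 and 169 CPM) are far apart, while those of Tfrc (295 and 96.7 CPM) overlap and those of Vwf (770 and 387 CPM) nearly meet.

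Mural nuclei held 17131 UMIs in 8 nuclei and 13487 in 6. Of 77 genes with 20 UMIs, 26 (33.8%) were higher and 19 (24.7%) lower in Foxr2 p53LOF. Without the 3 mural nuclei of Foxr2 alone with most GFP or endothelial markers (Ebf1 included), called mixed here, 2 were lower, with 3 nuclei left. The left-out nucleus with 24 UMIs of endothelial markers held 52 of pericyte markers and 0 of Ctla2a, so it was not shown to be mixed. Ctla2a had 1 UMI against 68, all 68 in 1 of the nuclei left out. Tmsb4x (2 against 55 UMIs), Fth1 (2 against 29), Rhoj (5 against 25) and Ubb (0 against 20) fell below the minimum of 20 UMIs without them and so could not be called. Their log2 ratios stayed negative on few UMIs, at -3.48 for Tmsb4x (2 against 6), -3.22 for Fth1 (2 against 5), -3.03 for Rhoj (5 against 11) and -2.31 at the floor for Ubb (0 against 4). The 14 pericyte markers outside the rule and the split were at 9048 and 11122 CPM. Over all 18, which include genes that made these nuclei mural, the sums were 15994 and 15719 CPM. Vtn, vitronectin, was lower at 30 and 53 UMIs, and Atp13a5 was not called at 56 and 38. Abcc9, a potassium channel subunit gene and a split gene, was higher at 37 and 12.

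The 5 leading higher genes of mural nuclei were still called without the mixed nuclei, with smaller log2 ratios. They were 3.75 instead of 5.30 for Grm7, 3.496 instead of 4.05 for Itga1 and 1.45 instead of 3.01 for Rapgef5. Iigp1 and Cxcl9, at 0 UMIs in Foxr2 alone, fell from 2.53 and 2.46 to 0.98 and 0.91 at the floor, which is under 2-fold. Grm7, a glutamate receptor gene, had 50 UMIs in 8 of 8 nuclei (1 to 11 each) against 1 UMI in 6, although other barcodes had 732 and 1696 CPM of it. Itga1, a collagen-binding integrin gene, had 42 UMIs in 7 nuclei against 2, and Rapgef5 had 51 in 7, 24 of them in 1, against 5. Basement membrane genes had 118 against 38 UMIs (6888 and 2818 CPM), with Col4a1 at 28 against 4. The ranges per nucleus overlapped, from 22.7 to 104 and from 9.23 to 43.1 UMIs per 10000.

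The interferon list had 90 UMIs against 0 in mural nuclei, 54 of them in 1 nucleus, and 6 of 8 nuclei held any. Iigp1 had 22 UMIs, 16 in 1 nucleus, and the chemokine gene Cxcl9 had 21, 19 in 1 nucleus. The glucocorticoid list had 7 UMIs against 54, and per nucleus it ran from 0 to 28.8 against 10.3 to 71.2 UMIs per 10000. Without the 3 mixed nuclei, 11 UMIs were left in Foxr2 alone, 2390 instead of 4004 CPM, and its 3 nuclei ran from 10.3 to 27.7, within the range of Foxr2 p53LOF (409 CPM). The sums of both lists lay in the same direction as in endothelial nuclei, on few UMIs.

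The 12 fibroblast nuclei of Foxr2 p53LOF held 32708 UMIs and have no counterpart in Foxr2 alone. Apod, a lipocalin, had 306 UMIs in 12 of 12 nuclei. Cped1 had 84 UMIs in 11 nuclei, the cystine carrier gene Slc7a11 75 in 9, and Colec12, a scavenger receptor gene, 44 in 10. Some genes came from few nuclei: Prg4, lubricin, had 65 UMIs in 3, Lbp 28 UMIs with 24 in 1, and Ptgds, prostaglandin D synthase, 68 with 51 in 1. Aldh1a2, the retinoic acid enzyme of meninges, had 34 UMIs in 7 nuclei with 22 in 1, Bmp6 23 in 6 and Lama1 32 in 7. Col3a1, a split gene, had 33 UMIs, and the fibroblast markers Col6a3, Fbln1 and Slc22a6 were at 0. The interferon list was at 4219 CPM in these nuclei, with 2 or more UMIs in each, close to the 3935 CPM of other barcodes. Of its 138 UMIs, 49 were in 1 nucleus, which also held 73 UMIs of oligodendrocyte markers beside 77 of fibroblast markers. Summed over the class, astrocyte markers were at 3424 CPM, in 11 of 12 nuclei, and oligodendrocyte markers at 2905 CPM. Other barcodes had 1216 and 2754 CPM. The part of other cells in the levels of this class was not tested.

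After thinning each nucleus to 500 UMIs, 1 of 50 in Foxr2 p53LOF (2.00%, 0.0506% to 10.6%) and 0 of 18 in Foxr2 alone, which allows up to 16.7%, held a UMI of Mki67 or Top2a. The 1 positive was the unsplit nucleus with ependymal markers, and 0 of the 29 endothelial, 8 mural and 12 fibroblast nuclei were positive. Immune barcodes had 7.47% and 0.274% by the same measure, and the remaining barcodes 3.73% and 0.207%. At these numbers a difference of the 50 nuclei from either was not detectable. Without thinning the vascular shares were 24% (12 of 50) and 0 of 18, at median depths of 2594 and 2400 UMIs. Unthinned immune barcodes had 26.1% and 0.274% at 2872 and 1227 UMIs, and the remaining barcodes 21.8% and 2.21% at 7251 and 5210. A single endothelial nucleus of Foxr2 p53LOF held 36 of the 76 UMIs that endothelial nuclei had over the 21 proliferation genes. It also held 4 UMIs of GFP, the most of the class, 2 of Foxr2 and 11 of oligodendrocyte, 10 of astrocyte and 7 of oligodendrocyte precursor markers, beside 58 of endothelial markers that the rule and the split had not used. The part of other cells in its proliferation counts was not tested.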

How the data were processed

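Per the labels and the methods of the study, nuclei of lesion tissue were isolated with a Singulator instrument and profiled by 10x Multiome. The authors made the deposited counts (RNA molecules of each gene and cut sites in each peak, for every barcode) with Cell Ranger ARC 2.0.0 on mm10 plus vector sequences (13 features), and called barcodes and peaks per library, with no further normalization. The 2 libraries analysed here held 96929539 and 59719847 UMIs. Of peak entries, 80.7% and 82.9% were even, so counts were divided by 2 to give fragments. Counts of each class were pooled over its nuclei and given as CPM. Exact Poisson, conditional ratio and Clopper-Pearson intervals at 95% were computed with scipy 1.17.1, and the floor of a value was 3 counts over the group. Nuclei are not replicates, so no test was made. The calling step was tested on simulated data.

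Members, gene lists and tests were chosen with earlier results of these data known. Named genes are the 15 (5 for mural and fibroblast nuclei) higher and lower called genes with intervals farthest from 0 and at least 2-fold above the rest of their library. Beyond these, list members are named. The fibroblast genes, the printed peaks and the 8-fragment minimum were chosen after values were seen. Peaks and gene annotation were of mm10. Scrublet (scanpy 1.11.5) marked 371 (3.64%) and 866 (8.61%) barcodes as doublets, 0 and 1 of them vascular, and none were removed. A few genes of the lists are not reported here by name.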

Additional observations from a re-analysis of the deposited data

How the results depend on the processing

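No paired analysis was possible because counts of 1 library per genotype were analysed here, and for the same reason no replicate could be left out. Among the main values, 65 alternatives stayed within 1.5 times or within the interval and 31 moved. Where a value moved, the cause was not tested. With at least 8 rule UMIs the endothelial share of Foxr2 p53LOF was 74.4%, and with 0.5% rule UMIs it was 78.8% of 33 nuclei. Endothelial calls (427 higher, 187 lower) became 268 and 116 without the tenth of nuclei with most markers of other cells, 1256 and 70 with median scaling, 176 and 44 with at least 50 UMIs, 242 and 87 when each gene lost its highest nucleus, and 154 and 124 relative to the length bin; with no minimum, 813 were lower. Gene lists with a median log2 ratio of at least 1 or at most -1 numbered 2 and 4, 10 and 0 with median scaling, and 6 and 2 over members with 20 UMIs, where the arterial median turned to 0.25. Of the 4, the proliferation list had 76 against 3 UMIs, and its median of -1.75 is set by the floor. Without the floor the arterial median was -0.25 instead of -1.51, and that of adhesion and inflammation genes 0.16 instead of -1.75. The glucocorticoid median was -1.75 with and without the floor. Without the hemoglobin nucleus 1 list was at 1 or more. Of mural genes, 2 instead of 19 were lower without mixed nuclei. The proliferating share was 24% without thinning and 34.0% with at least 2 UMIs over the list. Called peaks (21, 2 and 1 in both libraries) were 447, 262 and 32 on counts not divided by 2, 0, 0 and 0 at 4-fold, and 870, 674 and 101 with 8 fragments and without neuron-marker nuclei (851 in Foxr2 p53LOF with 8 fragments alone). The 8-fragment, hemoglobin, length, highest-nucleus, neuron-marker, mixed-nucleus and rule-gene settings were chosen after seeing the data. For the named genes, 338 alternatives kept direction and call, 10 lost the call and 0 changed direction. The 10 lost calls were of Hba-a1, Bex2, Lcn2 and Sst. A further 12 gave no value, as no UMIs were left in either library: Hs6st3 and Il1rapl2 without the neuron-marker nuclei, without the tenth or with 0.5% rule UMIs, and Hbb-bs and Hba-a2 without the hemoglobin nucleus, the highest nucleus or the tenth.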
